A study of Homo sapiens with 48 samples.

Results

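In HEK293T cells that had undergone T-REX of NCBP1, 4 libraries taken 12 h after the reaction were compared with 4 taken 3 h after it, across all 14685 genes of the deposited tables. These 8 libraries were chosen by their labels alone, out of 48 in the series. HEK293T is an established human embryonic kidney line, and the cells carried a plasmid for NCBP1 fused to Halo, a protein tag that binds its ligand covalently. In T-REX, a photocaged precursor of 4-hydroxynonenal (HNE, a reactive lipid aldehyde) is bound to Halo and released by light, so that HNE reaches the fused protein first. The other arms, all with the same plasmid and also of 4 libraries per time point, are named DMSO (the solvent, no light), probe alone (no light) and light alone, and the study's Methods list the probe for the last of these too. RNA was also taken at 6 h, and every arm was wild type by its label. The plasmid was delivered by transient transfection, so its dose differs between cells.

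NCBP1 is the larger of both subunits of the cap-binding complex in the nucleus, which holds the 5′ cap of new RNA polymerase II transcripts and couples it to splicing, 3′ end processing and export. A comparison of both times within 1 arm sets libraries taken early after the reaction beside separate libraries taken late. The unfolded protein response is the program by which cells with a loaded endoplasmic reticulum (ER) make more chaperones. The factor p53 halts division after damage, the factor HIF turns on glycolysis and oxygen-sparing genes, and ribosome biogenesis in the nucleolus follows growth. HEK293T cells hold SV40 large T antigen, which binds p53.

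The 8 libraries held between 23952455 and 37099535 counts. Values are given in CPM, counts relative to a library total scaled by TMM, in the order of replicates 1 to 4, and are not divided by gene length, so they are compared within a gene only. A gene is said to rise or fall where its edgeR quasi-likelihood F-test gave a Benjamini-Hochberg adjusted p of at most 0.05 over all genes. The median standard deviation (SD) of log2 CPM between replicates was 0.126 at 3 h and 0.0787 at 12 h over 10214 genes. At 3 h, replicates 3 and 4 stood apart from 1 and 2: their deviations from the group mean followed GC content with Spearman rho of 0.612 and 0.329 across 10190 genes, against -0.695 and -0.326 for replicates 1 and 2. At 12 h the 4 values were -0.277, -0.414, 0.376 and 0.340, so replicates 1 and 2 leaned one way and replicates 3 and 4 the other at both times. Time of harvest and any batch of preparation cannot be told apart in these files. Of 13 markers listed for HEK293T cells, 10 were in the table, with a summed level of 984 to 1201 CPM at 3 h and 1395 to 1428 CPM at 12 h. Of 7 blood markers only ITGAM was in the table, and of 10 fibroblast and endothelial markers only COL1A1, each at a low level (1.71 to 4.86 CPM in the 8 libraries). In RNA from whole cultures, fewer cells of a kind and less RNA per cell cannot be told apart.

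Between 3 and 12 h, 2588 genes rose and 2389 fell, which is 4977 genes or 33.9% of those tested (17.6% in the upward and 16.3% in the downward direction). The median log2 fold change was 0.45 among the genes that rose and -0.36 among those that fell, and 147 genes rose and 43 fell by at least 1 on the log2 scale. Of the genes called, 4341 (87.2%) had no overlap between the 4 libraries of each time, where 33.5% of all genes showed no overlap. Calls and overlap come from the same 8 libraries, so the higher share among the genes called follows from their selection. At 6 h, from 4 libraries that the test did not use, the mean lay between those of 3 and 12 h for 4289 of the genes called (86.2%), and for 55.4% of all genes. When any 1 of the 8 libraries was left out, 3321 genes stayed called in their direction in all 8 fits.

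Most genes called under T-REX were also called in each control. Over 3 to 12 h, 4436 genes were called with DMSO, 7090 with probe alone and 6390 with light alone, each in its own 8 libraries. Replicate spread differed between arms, and its part in these counts was not tested. The median SD of log2 CPM at 3 h was 0.0866 with DMSO, 0.0885 with probe alone and 0.0903 with light alone. At 12 h it was 0.142, 0.0863 and 0.0740 in that order. Calls in the same direction as under T-REX numbered 4026 with light alone, which is 80.9% of the T-REX calls and 63% of those of light alone. They numbered 3919 with probe alone (78.7% and 55.3%) and 3184 with DMSO (64.0% and 71.8%). Calls in the opposite direction numbered 0 with DMSO, 5 with probe alone and 2 with light alone. Log2 fold changes under T-REX correlated across genes with those of DMSO (Pearson's r of 0.735), probe alone (0.729) and light alone (0.819), a description over 14685 genes that are not independent, in arms that share no library but share their harvest times.

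NCBP1 itself took 8.99%, 7.53%, 7.75% and 5.85% of the counts at 3 h and 6.09%, 5.52%, 5.42% and 6.56% at 12 h. The tables do not separate the plasmid's coding sequence from the endogenous gene. The groups overlapped through replicate 4 at 3 h, and the fitted change (log2 fold change -0.40 ± 0.14 (SE), edgeR adjusted p = 0.0442) was lost with the replicate number as a block (adjusted p = 0.0845) and without any 1 of replicates 1 to 3 at 3 h (0.0739, 0.0905 and 0.12) or at 12 h (0.0778, 0.107 and 0.107). In the controls the log2 fold change of NCBP1 was -0.64 with DMSO, -0.12 with probe alone and -0.58 with light alone. Of 22 tested genes of the cap-binding complex and its partners, 13 fell (59.1%, beside 16.3% of all genes) and 9 did not pass the test. Their median log2 fold change was -0.31 (all genes -0.02). The count that fell was 9 without replicate 1 or 2 at 12 h and 14 without replicate 4 at 3 h. Tested against a fold of 1.2 it was 4. NCBP2, the cap-binding small subunit, was at 35, 34.3, 37.5 and 33.6 CPM at 3 h and 24.6, 27.5, 27.1 and 24.4 CPM at 12 h (log2 fold change -0.44 ± 0.08 (SE), edgeR adjusted p = 6.94e-04). ALYREF, the export adaptor that the complex recruits, was at 20.8, 23.3, 33.8 and 21.7 CPM at 3 h and 15.7, 15.2, 15.8 and 14.8 CPM at 12 h (log2 fold change -0.70 ± 0.14 (SE), edgeR adjusted p = 0.00243), with no overlap. SRRT, the ARS2 protein that links the cap to RNA processing, changed by -0.54, a call that was lost without replicate 1 or 2 at 12 h (adjusted p = 0.0561 and 0.0539). RPS6KB1, the S6 kinase of the mTOR pathway, fell by 0.50 and KPNA2, an importin alpha, by 0.45 on the log2 scale. The medians of this list were -0.22 with DMSO, -0.23 with probe alone and -0.26 with light alone.

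**Figure D1:**
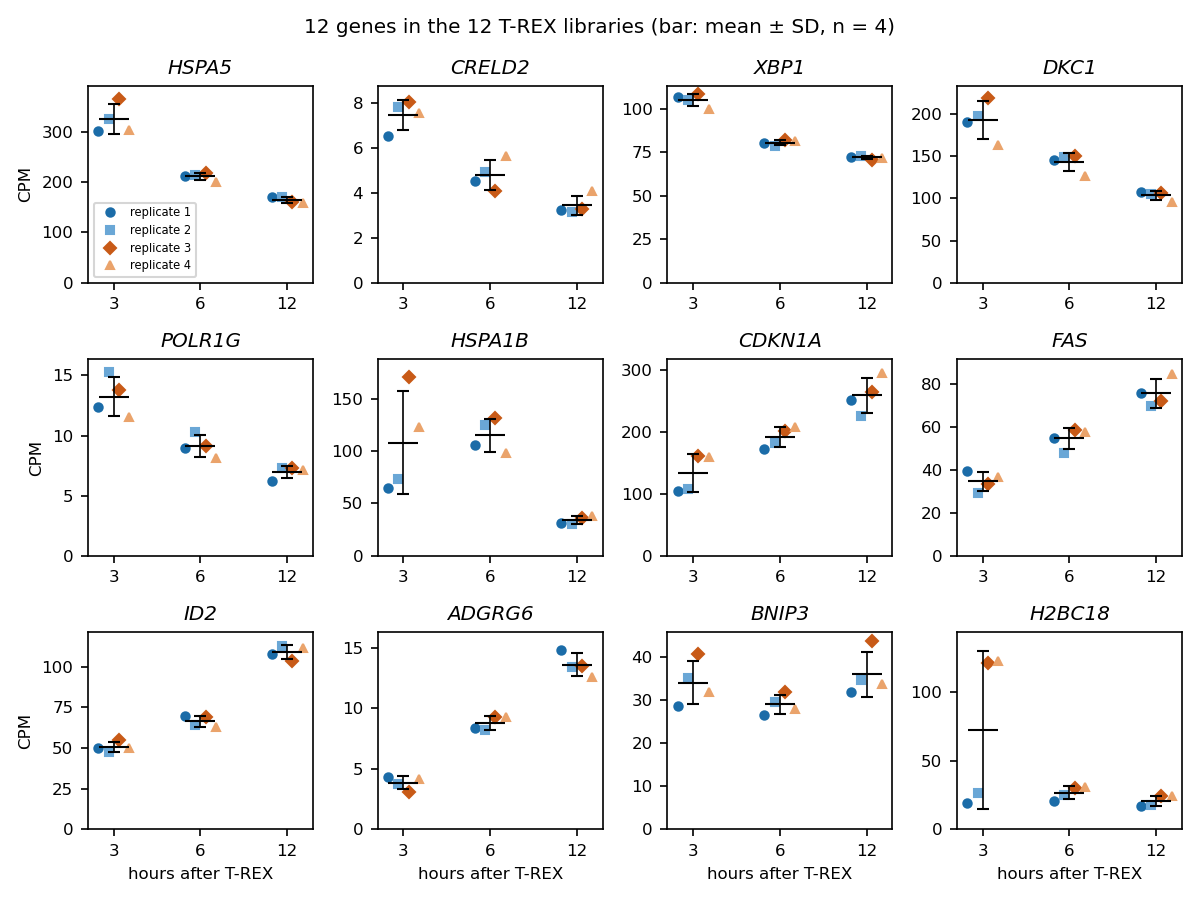
CPM of 12 genes (vertical axes, from 0) in each T-REX library at 3, 6 and 12 h (horizontal axes), with 1 symbol per replicate and bars for the mean and SD of 4. HSPA5, CRELD2, XBP1, DKC1 and POLR1G stand lower at 12 h in all 4 libraries and CDKN1A, FAS, ID2 and ADGRG6 higher, BNIP3 overlaps between the times, and H2BC18 is high only in replicates 3 and 4 at 3 h. Times are spaced evenly, not to scale.

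Most genes of the unfolded protein response fell. Of its 32 tested members 24 fell and 8 did not pass the test, beside 16.3% of all genes that fell, with a median log2 fold change of -0.41. All libraries at 12 h lay below all at 3 h for 22 of the 32, and for 2224 of all 14685 genes. HSPA5 (BiP), the main ER chaperone, was at 302, 325, 366 and 303 CPM at 3 h and 169, 169.7, 159 and 159 CPM at 12 h (log2 fold change -0.98 ± 0.06 (SE), edgeR adjusted p = 1.31e-06). At 6 h it averaged 211 CPM, between the other times. CRELD2, a secreted ER stress protein, was at 6.53, 7.8, 8.04 and 7.54 CPM at 3 h and 3.24, 3.16, 3.29 and 4.07 CPM at 12 h (log2 fold change -1.12 ± 0.15 (SE), edgeR adjusted p = 1.05e-04). MANF, an ER-resident factor, was at 40.1, 45.2, 57.2 and 40.6 CPM at 3 h and 26.5, 26.9, 24.3 and 28.9 CPM at 12 h (log2 fold change -0.78 ± 0.11 (SE), edgeR adjusted p = 2.35e-04). XBP1, whose spliced form is a transcription factor of this response, was at 107, 105, 108 and 100.1 CPM at 3 h and 72.4, 73.1, 70.7 and 71.8 CPM at 12 h (log2 fold change -0.55 ± 0.05 (SE), edgeR adjusted p = 8.80e-06). In HSPA5, CRELD2, MANF and XBP1 the groups did not overlap. SDF2L1, a partner of ER chaperones, fell by 1.07 on the log2 scale although replicate 4 at 12 h (1.96 CPM) was above replicate 1 at 3 h (1.79 CPM). The list's median was similar within replicates 1 and 2 (median -0.40) and within replicates 3 and 4 (median -0.44). In the controls its medians were -0.27 with DMSO, -0.35 with probe alone and -0.28 with light alone, and none of its members was called for a difference of the time effect between T-REX and the controls.

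Some of these genes share a promoter sequence. The ER stress element, searched on both strands as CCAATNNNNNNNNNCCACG, was found in the 250 bases before the RefSeq start (GRCh38.p14) of 14 of 10442 tested genes with a promoter in the table (0.134%) and of 6 of 28 members of the list (21.4%). The 6 windows are shown because they carry the element, with matches in capitals.
HSPA5 (chr9:125241344-125241593, minus strand): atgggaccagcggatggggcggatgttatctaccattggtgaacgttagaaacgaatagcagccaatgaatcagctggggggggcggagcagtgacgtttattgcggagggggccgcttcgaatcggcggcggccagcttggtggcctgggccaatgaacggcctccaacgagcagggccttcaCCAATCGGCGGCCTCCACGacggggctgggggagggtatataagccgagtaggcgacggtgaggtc
CRELD2 (chr22:49918384-49918633, plus strand): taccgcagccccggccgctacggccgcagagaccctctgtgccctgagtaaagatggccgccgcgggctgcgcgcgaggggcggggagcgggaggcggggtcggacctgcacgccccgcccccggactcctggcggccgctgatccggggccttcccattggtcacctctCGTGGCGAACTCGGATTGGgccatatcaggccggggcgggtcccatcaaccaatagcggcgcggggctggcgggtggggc
HSP90B1 (chr12:103930160-103930409, plus strand): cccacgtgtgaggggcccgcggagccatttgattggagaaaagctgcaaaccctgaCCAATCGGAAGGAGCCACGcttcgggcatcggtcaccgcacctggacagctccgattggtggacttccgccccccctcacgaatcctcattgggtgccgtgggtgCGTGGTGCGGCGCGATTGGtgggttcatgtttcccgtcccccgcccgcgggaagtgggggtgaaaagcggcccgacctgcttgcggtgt
CALR (chr19:12938359-12938608, plus strand): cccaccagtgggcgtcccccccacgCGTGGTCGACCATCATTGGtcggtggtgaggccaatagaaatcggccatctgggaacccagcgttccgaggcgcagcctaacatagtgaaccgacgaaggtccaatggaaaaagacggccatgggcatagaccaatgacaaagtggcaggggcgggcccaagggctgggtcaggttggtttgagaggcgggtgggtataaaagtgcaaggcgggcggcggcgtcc
XBP1 (chr22:28800570-28800819, minus strand): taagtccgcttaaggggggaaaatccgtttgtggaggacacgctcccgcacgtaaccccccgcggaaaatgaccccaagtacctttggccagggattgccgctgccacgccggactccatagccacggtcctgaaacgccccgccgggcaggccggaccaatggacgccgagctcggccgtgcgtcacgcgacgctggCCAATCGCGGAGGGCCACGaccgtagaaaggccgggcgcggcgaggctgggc
CANX (chr5:179698679-179698928, plus strand): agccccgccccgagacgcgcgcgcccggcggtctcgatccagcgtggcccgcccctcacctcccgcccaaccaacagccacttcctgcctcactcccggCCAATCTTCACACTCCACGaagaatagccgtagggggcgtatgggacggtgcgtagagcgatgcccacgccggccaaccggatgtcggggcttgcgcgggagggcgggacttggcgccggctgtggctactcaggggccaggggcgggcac
The match began 66 bases before the start in HSPA5, 80 in CRELD2, 194 and 89 in HSP90B1, 225 in CALR, 52 in XBP1 and 151 in CANX, and in CRELD2, CALR and the second of HSP90B1 it lay on the opposite strand. Of these 6 genes 5 fell, beside 24 of the 32 tested members of the whole list. HSP90B1 (GRP94, an ER chaperone) was at 585, 625, 660.2 and 511 CPM at 3 h and 426, 439, 406 and 404 CPM at 12 h (log2 fold change -0.51 ± 0.07 (SE), edgeR adjusted p = 1.72e-04) and CALR (calreticulin, a calcium-binding chaperone) changed by -0.51. CANX (calnexin, its membrane-bound relative) was at 1459.5, 1440.2, 1514 and 1237 CPM at 3 h and 1366, 1416, 1321 and 1315 CPM at 12 h and did not pass the test (log2 fold change -0.06 ± 0.06 (SE), edgeR adjusted p = 0.475). Of the other 8 genes with the element, SERP1 fell (-0.22, lost within replicates 3 and 4 alone with adjusted p = 0.0539), TRIM5 and ALG12 rose (0.69 and 0.34, the latter lost in 6 of the 8 fits with a library left out, with adjusted p from 0.0618 to 0.124), and 5 were not called. Within replicates 3 and 4 alone TRIM5 and ALG12 were lost too (adjusted p = 0.115 and 0.118). A match describes the sequence of the window and was not tested for use in these cells.

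Genes of ribosome biogenesis fell too. Of 36 tested ribosome biogenesis genes 29 fell (80.6%, beside 16.3% of all genes) and 7 did not pass the test, with a median of -0.37. DKC1, the pseudouridine synthase of box H/ACA particles, was at 191, 198, 219 and 164 CPM at 3 h and 107, 106, 106 and 96.2 CPM at 12 h (log2 fold change -0.90 ± 0.08 (SE), edgeR adjusted p = 9.06e-06). POLR1G, a subunit of RNA polymerase I, was at 12.4, 15.3, 13.8 and 11.5 CPM at 3 h and 6.25, 7.27, 7.33 and 7.12 CPM at 12 h (log2 fold change -0.92 ± 0.12 (SE), edgeR adjusted p = 1.22e-04). MRTO4, which assembles the ribosomal stalk, was at 21, 21.2, 26 and 18.1 CPM at 3 h and 10.4, 11.3, 12.5 and 9.13 CPM at 12 h (log2 fold change -1.0 ± 0.13 (SE), edgeR adjusted p = 1.01e-04). All of these lay lower at 12 h in every library. RRS1, a 60S assembly factor of low level, was at 2.05, 1.23, 3.77 and 4.45 CPM at 3 h and 0.712, 1.22, 0.93 and 1.0 CPM at 12 h, and its call (log2 fold change -1.58 ± 0.37 (SE), edgeR adjusted p = 0.00663) was lost within replicates 1 and 2 alone (adjusted p = 0.132). Of 19 snoRNA host genes 8 fell and 1 rose (median -0.25), and of 20 cytosolic aminoacyl-tRNA synthetases 6 fell (median -0.12, with HARS1 at -0.45 and FARSB at -0.38). The shares called in either direction were 47.4% and 30%, beside 33.9% of all genes. Of 80 cytosolic ribosomal protein genes 13 fell and 2 rose (median -0.16), and the share that fell is near the 16.3% over all genes. The count of ribosomal protein genes that fell turned on single libraries: it was 27 without replicate 4 at 3 h, 7 without replicate 2 at 3 h, and 5, 7, 3 and 4 without replicate 1, 2, 3 or 4 at 12 h. That list's median was -0.05 within replicates 1 and 2 and -0.24 within 3 and 4. Biogenesis genes fell by similar medians in the controls, -0.39 with DMSO, -0.45 with probe alone and -0.30 with light alone.

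**Figure D2:**
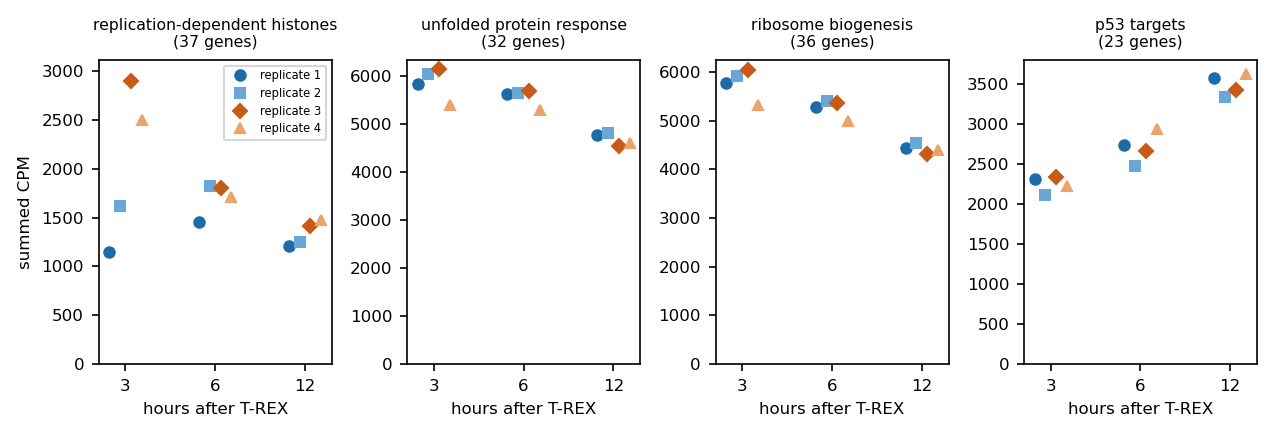
Summed CPM of 4 gene lists (vertical axes, from 0) in each T-REX library at 3, 6 and 12 h, with 1 symbol per replicate and times spaced evenly. Unfolded protein response and ribosome biogenesis genes are lower and p53 targets higher at 12 h in all 4 replicates, with 6 h in between on average, whereas the histone sum at 3 h runs from 1143 in replicate 1 to 2903 in replicate 3.

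Targets of p53 rose. Of 23 tested targets 17 rose (73.9%, beside 17.6% of all genes) and 6 did not pass the test. The median was 0.52, the highest of the lists described here. The sum of the list was between 2111 and 2334 CPM at 3 h, between 2477 and 2928 CPM at 6 h and between 3327 and 3614 CPM at 12 h, with no overlap between any of the times. FAS, a death receptor, was at 39.8, 29.3, 33.4 and 36.7 CPM at 3 h and 75.8, 69.9, 72 and 84.9 CPM at 12 h (log2 fold change 1.12 ± 0.09 (SE), edgeR adjusted p = 5.30e-06). CDKN1A (p21), which inhibits cyclin-dependent kinases, was at 105, 109, 162 and 159.5 CPM at 3 h and 251, 226, 266 and 295 CPM at 12 h (log2 fold change 0.95 ± 0.18 (SE), edgeR adjusted p = 0.00554), and its replicates 3 and 4 were above 1 and 2 at both times. TP53INP1, which promotes p53 activity, was at 119, 98.4, 116 and 108 CPM at 3 h and 206, 184, 199.9 and 215 CPM at 12 h (log2 fold change 0.87 ± 0.07 (SE), edgeR adjusted p = 2.79e-06). In each of these targets all libraries at 12 h were above all at 3 h. TP53I3, an oxidoreductase, rose by 0.91 and BTG2, an antiproliferative gene that also counts among the immediate early genes, by 0.87. PINCR, a long noncoding RNA that p53 induces, was among the genes that rose most and stood at 3.04, 1.81, 2.36 and 2.22 CPM at 3 h and 7.39, 6.29, 7.69 and 10.9 CPM at 12 h (log2 fold change 1.77 ± 0.21 (SE), edgeR adjusted p = 4.67e-05). The list medians were 0.51 with DMSO, 0.76 with probe alone and 0.38 with light alone.

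Genes of mitosis fell as well. Of 40 tested mitosis genes 25 fell and 1 rose (median -0.21), which is 65% called beside 33.9% of all genes. The count that fell was 17 without replicate 2 at 3 h or replicate 1 or 3 at 12 h, and 27 without replicate 4 at 3 h. Tested against a fold of 1.2 it was 5, where 459 of all genes fell. Among those that fell were CDCA8 of the chromosomal passenger complex (-0.57), UBE2C of the anaphase-promoting pathway (-0.56) and PLK1, a mitotic kinase (-0.55). Of 39 DNA replication genes 11 fell and 1 rose (median -0.14), which is 30.8% called and near the 33.9% of all genes. Without replicate 3 at 3 h 4 rose. The median of this list was -0.05 within replicates 1 and 2 and -0.16 within 3 and 4. RRM2, the small subunit of ribonucleotide reductase, was at 247, 286, 245 and 252 CPM at 3 h and 166, 181, 172 and 166 CPM at 12 h (log2 fold change -0.59 ± 0.06 (SE), edgeR adjusted p = 1.51e-05). CDC6, which loads the replicative helicase, fell by 0.58, and CLSPN, a checkpoint adaptor, by 0.46. POLE2, a subunit of DNA polymerase epsilon, was the 1 gene that rose in the fit of all 8 libraries, with 28.3, 26.9, 24 and 28 CPM at 3 h and 38, 37.5, 34.3 and 36.4 CPM at 12 h (log2 fold change 0.45 ± 0.07 (SE), edgeR adjusted p = 6.09e-04). In the fit of all 48 libraries the median of the mitosis list was -0.01 from 3 to 6 h and -0.20 from 6 to 12 h, and that of the replication list was -0.15 and then 0.07.

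The replication-dependent histones had the lowest median of the lists, -0.73, but with a wide spread. Of 57 listed 37 were in the table, of which 11 fell (29.7%, beside 16.3% of all genes) and 26 did not pass the test. The summed level was 1143, 1616, 2903 and 2500 CPM at 3 h and 1212, 1246, 1410 and 1471 CPM at 12 h, so replicate 1 was lower at 3 h than at 12 h and replicates 3 and 4 were much higher. At 3 h, replicates 3 and 4 were both above 1 and 2 for 27 of the 37 genes, where 22.2% of all genes showed that order. At 12 h the same order held for 26 of the 37. Within replicates 1 and 2 the median was -0.26 and within 3 and 4 it was -1.11. The count that fell was 18 without replicate 1 at 3 h and 4, 4, 5 and 5 without replicate 1, 2, 3 or 4 at 12 h. H2AC21 was at 1.52, 1.56, 6.45 and 6.75 CPM at 3 h and 1.0, 0.782, 0.751 and 1.09 CPM at 12 h, and its call (log2 fold change -2.15 ± 0.56 (SE), edgeR adjusted p = 0.0194) was lost without replicate 3 at 3 h (adjusted p = 0.0529), without replicate 1, 2 or 3 at 12 h (0.0559, 0.0582 and 0.059), and within replicates 1 and 2 alone (0.126). H2BC18 was at 19, 26.1, 121 and 123 CPM at 3 h and 16.9, 17.7, 23.9 and 24 CPM at 12 h and did not pass the test (log2 fold change -1.81 ± 0.69 (SE), edgeR adjusted p = 0.0916). H2BC4 was at 59.7, 80.7, 137 and 97.8 CPM at 3 h and 38.1, 41.7, 43.4 and 43.3 CPM at 12 h (log2 fold change -1.18 ± 0.25 (SE), edgeR adjusted p = 0.0106). H2BC4 and H4C8 (log2 fold change -1.18) stayed called in all 8 fits with 1 library left out, but H4C8 was lost within replicates 3 and 4 alone (adjusted p = 0.235). Within a class (such as H2B or H4) these genes are close copies of each other, so the division of reads within a class is uncertain. Transcripts of this list end in a stem-loop and not a poly(A) tail. With each library corrected for GC content and transcript length, the median was -0.70 and 13 fell. The medians were -0.03 with DMSO, -0.18 with probe alone and -0.36 with light alone.

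Chaperones of the heat shock response fell. Of 19 tested, 12 fell and 1 rose (median -0.29), which is 68.4% called beside 33.9% of all genes. The list's median was 0.17 from 3 to 6 h and -0.36 from 6 to 12 h in the fit of 48 libraries. HSPA1B, an inducible HSP70, was at 64.3, 73.2, 171 and 123 CPM at 3 h and 31, 30.3, 36.6 and 37.8 CPM at 12 h (log2 fold change -1.67 ± 0.34 (SE), edgeR adjusted p = 0.0104), and averaged 115 CPM at 6 h. It has a near-identical copy, HSPA1A, which was not analysed here. BAG3, its co-chaperone, was at 26.4, 29.2, 45.1 and 31.7 CPM at 3 h and 20.4, 18.5, 21.5 and 21.7 CPM at 12 h (log2 fold change -0.69 ± 0.15 (SE), edgeR adjusted p = 0.00586), and AHSA1, an activator of HSP90, fell by 0.57, a call lost within replicates 3 and 4 alone (adjusted p = 0.0536). The groups did not overlap for HSPA1B and BAG3, and in both replicate 3 was the highest of the 3 h libraries. Of 23 sterol synthesis genes 10 fell and 2 rose (median -0.28), which is 52.2% called beside 33.9% of all genes. NSDHL, an enzyme of cholesterol synthesis, was at 36.1, 35.4, 42.1 and 31.2 CPM at 3 h and 21.9, 23.4, 24.4 and 19.1 CPM at 12 h (log2 fold change -0.71 ± 0.10 (SE), edgeR adjusted p = 2.30e-04), while IDI1, an isoprenoid isomerase, fell by 0.48. Of 15 transcripts of the mitochondrial genome 4 fell (median -0.34), which is 26.7% beside 16.3% of all genes. That count was 8 without replicate 4 at 3 h and 2 and 1 without replicate 1 or 4 at 12 h, and it was 7 with the replicate number as a block. With GC and length correction 2 fell and 3 rose. Of 35 genes of the integrated stress response 6 fell and 3 rose (median -0.07), near the share over all genes for those that fell (16.3%). Without replicate 3 at 3 h 8 fell and 7 rose, without replicate 1 at 3 h 9 fell and 3 rose, and without replicate 3 at 12 h 3 fell and 3 rose. With the replicate number as a block 8 fell and 5 rose. ATF5, a transcription factor of that response, was at 13, 13.3, 27.2 and 16.6 CPM at 3 h and 6.31, 6.59, 6.47 and 5.38 CPM at 12 h (log2 fold change -1.51 ± 0.23 (SE), edgeR adjusted p = 8.80e-04), and VLDLR, a lipoprotein receptor, rose by 0.75.

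NRF2 targets are the genes of antioxidant and electrophile defence. Of 21 tested 1 rose and 5 fell, which is 28.6% beside 33.9% of all genes, with a median of -0.04 (light alone 0.01, probe alone -0.10, DMSO -0.04). Without replicate 2 at 3 h 3 fell, and without replicate 1, 2, 3 or 4 at 12 h 2, 3, 2 and 3 fell. SLC48A1, a heme transporter, was at 8.96, 10.6, 9.76 and 10.8 CPM at 3 h and 14.7, 15.6, 11.4 and 13.4 CPM at 12 h (log2 fold change 0.46 ± 0.12 (SE), edgeR adjusted p = 0.00958). TXNRD1, thioredoxin reductase 1, was at 109, 115, 103 and 99.3 CPM at 3 h and 86.2, 89.8, 83.1 and 84.6 CPM at 12 h (log2 fold change -0.32 ± 0.06 (SE), edgeR adjusted p = 0.00103) and averaged 116 CPM at 6 h. The groups did not overlap for either gene, but the call of SLC48A1 was lost within replicates 3 and 4 alone (adjusted p = 0.213). Of 33 lysosome and autophagy genes 4 rose and 2 fell, of 26 immediate early genes 4 rose and 3 fell, of 13 fatty acid synthesis genes 3 rose and 2 fell, and of 11 MondoA targets 2 rose and 2 fell. In that order the shares called were 18.2%, 26.9%, 38.5% and 36.4%, beside 33.9% of all genes. The immediate early genes that fell numbered 0 without replicate 1, 2 or 3 at 12 h and 1 without replicate 2 or 4 at 3 h. The lysosome and autophagy genes that fell numbered 4 without replicate 4 at 3 h and 1 without replicate 1, 3 or 4 at 12 h, and the fatty acid synthesis genes that fell 1 without replicate 4 at 12 h. Of 35 interferon response genes 12 were in the table and 5 rose (median 0.20), which is 41.7% of those tested beside 17.6% of all genes. DDX60, an antiviral helicase, was at 4.33, 4.46, 3.95 and 3.61 CPM at 3 h and 7.73, 7.51, 6.44 and 7.58 CPM at 12 h (log2 fold change 0.84 ± 0.14 (SE), edgeR adjusted p = 5.03e-04), and HERC6, an E3 ligase, rose by 0.60, a call lost within replicates 3 and 4 alone (adjusted p = 0.163). FOSL1, a subunit of AP-1, was at 7.06, 5.87, 8.18 and 5.04 CPM at 3 h and 13.6, 10.5, 13.8 and 11.3 CPM at 12 h (log2 fold change 0.91 ± 0.16 (SE), edgeR adjusted p = 8.78e-04).

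Several targets of developmental signalling pathways rose. Of 20 targets of Notch, Wnt and TGF-beta 8 rose and 2 fell (median 0.29), which is 50% called beside 33.9% of all genes. The count that fell was 1 without replicate 3 or 4 at 3 h or replicate 1, 2 or 4 at 12 h. ID2 and ID3, inhibitors of helix-loop-helix factors that BMP signalling induces, rose most. ID2 was at 49.8, 47.3, 54.8 and 50.2 CPM at 3 h and 108, 113, 104 and 112 CPM at 12 h (log2 fold change 1.11 ± 0.06 (SE), edgeR adjusted p = 3.85e-07), and averaged 66.5 CPM at 6 h. ID3 was at 0.988, 1.31, 2.36 and 2.5 CPM at 3 h and 5.75, 5.67, 6.12 and 5.65 CPM at 12 h (log2 fold change 1.69 ± 0.25 (SE), edgeR adjusted p = 2.48e-04), low at 3 h in all 4 libraries. ID2 and ID3 did not overlap between the times. ID4, of the same family, rose by 0.93 and HES1, a Notch target, by 0.67. BMP4, a ligand of this pathway, was at 12.9, 11.6, 12.6 and 12.1 CPM at 3 h and 16.5, 19.2, 20.5 and 18.8 CPM at 12 h (log2 fold change 0.61 ± 0.10 (SE), edgeR adjusted p = 4.87e-04). Of the 10 HEK293T markers 5 rose (median 0.34), which is 50% beside 17.6% of all genes. NEFL, the light neurofilament protein that this line expresses, was at 33.4, 37.1, 45 and 42.2 CPM at 3 h and 70.7, 71.9, 73.3 and 68.3 CPM at 12 h (log2 fold change 0.85 ± 0.09 (SE), edgeR adjusted p = 1.62e-05). The control medians of the signalling list were 0.22, 0.28 and 0.20 and those of the markers were 0.34, 0.35 and 0.32, for light alone, probe alone and DMSO.

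**Figure D3:**
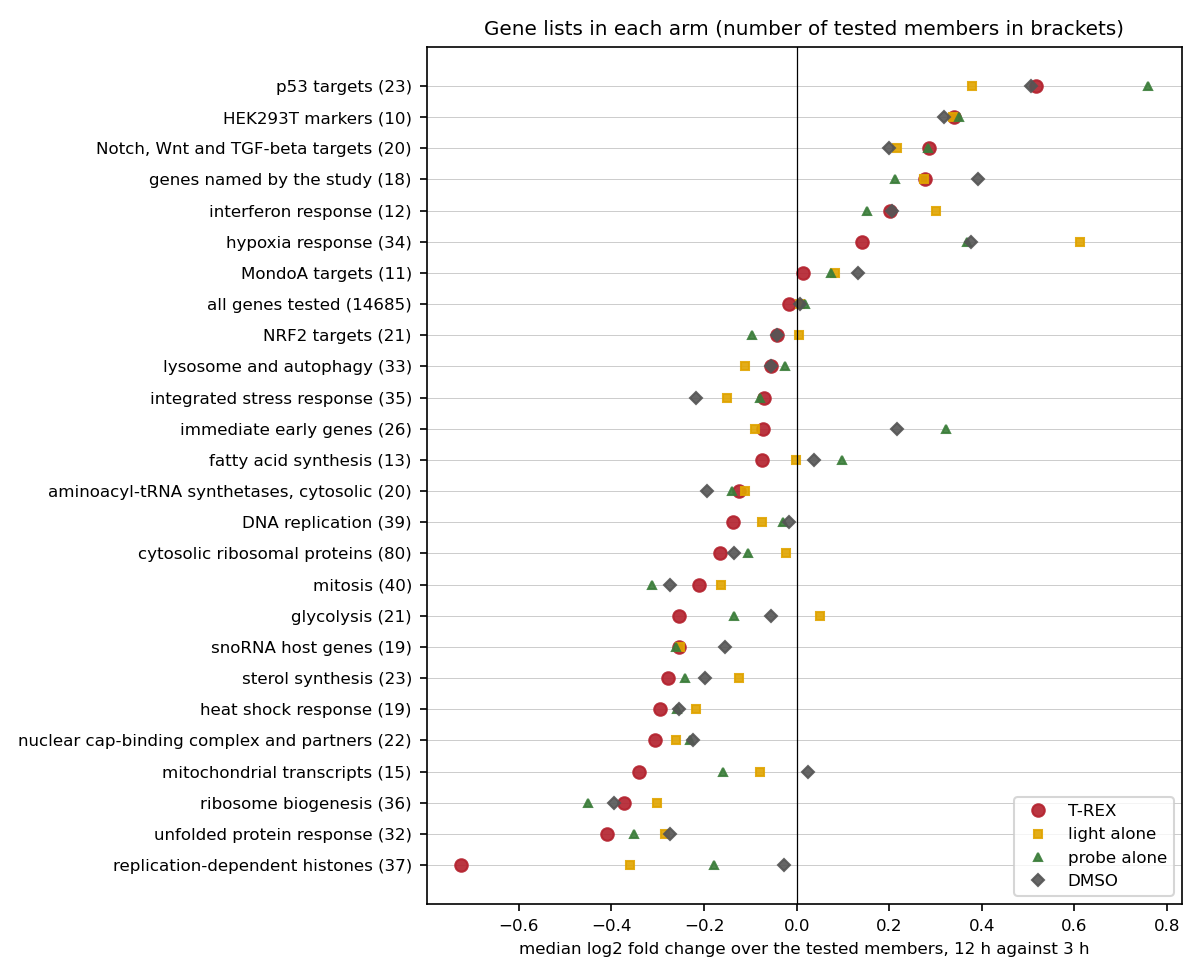
Median log2 fold change from 3 to 12 h over the tested members of each gene list (horizontal axis) in T-REX and in the 3 control arms (symbols), with lists ordered by the T-REX median. The arms lie close together for most lists, and T-REX is the lowest of the 4 for, among others, histones (-0.73), mitochondrial transcripts (-0.34), glycolysis (-0.25) and hypoxia response (0.14).

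By the naming rule for single genes, the genes that rose most included ADGRG6, SLC1A2, PINCR, GRHL3, CLIC5, EDIL3-DT, ID3, STC1 and LINC01707, with log2 fold changes from 1.64 to 1.83. ADGRG6 (GPR126), an adhesion receptor, was at 4.29, 3.77, 3.1 and 4.17 CPM at 3 h and 14.9, 13.4, 13.5 and 12.6 CPM at 12 h (log2 fold change 1.83 ± 0.13 (SE), edgeR adjusted p = 2.05e-06). SLC1A2, a glutamate transporter, was at 1.94, 1.7, 1.02 and 2.34 CPM at 3 h and 5.65, 6.73, 6.19 and 5.7 CPM at 12 h (log2 fold change 1.79 ± 0.22 (SE), edgeR adjusted p = 5.75e-05). GRHL3, an epithelial transcription factor, was at 3.99, 3.52, 4.51 and 4.88 CPM at 3 h and 15.4, 10.9, 14.6 and 15.2 CPM at 12 h (log2 fold change 1.73 ± 0.15 (SE), edgeR adjusted p = 6.36e-06). All 4 libraries at 12 h were above all at 3 h, as the rule asks, and each gene was also higher at 12 h in all 3 controls. CLIC5, a chloride channel protein, rose by 1.72 under T-REX, and its log2 fold change was 1.10 with DMSO, 0.31 with probe alone and 0.31 with light alone. The difference was 1.16 on the log2 scale and did not pass the test (edgeR adjusted p = 0.0714).

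The genes that fell most by the same rule were HSPA1B, ZNF593, RRS1, ATF5, AURKAIP1, EMC6, ETV5, H4C8, H2BC4 and NAP1L3, from -1.18 to -1.67. ETV5, an ETS factor downstream of growth factor signalling, was at 5.17, 4.9, 5.75 and 3.65 CPM at 3 h and 1.64, 1.29, 3.04 and 2.36 CPM at 12 h (log2 fold change -1.23 ± 0.25 (SE), edgeR adjusted p = 0.00244). NAP1L3, a histone chaperone of the nucleosome assembly family, was at 9.38, 13.3, 11.1 and 10.8 CPM at 3 h and 4.75, 5.88, 4.72 and 4.48 CPM at 12 h (log2 fold change -1.18 ± 0.14 (SE), edgeR adjusted p = 6.17e-05). Both were low in all 4 libraries at 12 h, and the call of ETV5 was lost within replicates 3 and 4 alone (adjusted p = 0.0696). ZNF593, a nucleolar zinc finger protein, was at 1.86, 2.76, 5.99 and 6.11 CPM at 3 h and 1.45, 1.33, 1.5 and 1.3 CPM at 12 h, and its call (log2 fold change -1.58 ± 0.36 (SE), edgeR adjusted p = 0.00573) was lost within replicates 1 and 2 alone (adjusted p = 0.0943). EMC6, a subunit of the ER membrane insertase, was at 4.9, 5.08, 13.1 and 11.9 CPM at 3 h and 3.14, 3.02, 3.4 and 3.75 CPM at 12 h (log2 fold change -1.39 ± 0.34 (SE), edgeR adjusted p = 0.0133). AURKAIP1, EMC6 and ZNF593 were all highest in replicates 3 and 4 at 3 h, as the histones were.

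Of the 18 genes that the study names for its RNA-seq, a list chosen on these samples, 10 rose and 5 fell, with a median of 0.28. That is 83.3% called, beside 33.9% of all genes. HRK, a BH3-only activator of apoptosis, was at 19.7, 17.7, 17.9 and 16.5 CPM at 3 h and 30.6, 29.9, 26.3 and 28.9 CPM at 12 h (log2 fold change 0.69 ± 0.09 (SE), edgeR adjusted p = 7.56e-05). CXCR4, a chemokine receptor, was at 5.74, 7.87, 7.82 and 7.07 CPM at 3 h and 10.6, 13.1, 12.9 and 12.1 CPM at 12 h (log2 fold change 0.77 ± 0.13 (SE), edgeR adjusted p = 7.17e-04). SESN3, a sestrin that restrains mTOR, was at 159, 158, 155 and 161 CPM at 3 h and 212, 219, 209 and 215 CPM at 12 h (log2 fold change 0.43 ± 0.04 (SE), edgeR adjusted p = 1.63e-05). In these genes the groups did not overlap. IGFBP5, which binds insulin-like growth factors, rose by 0.64, DACH1, a transcriptional cofactor, by 0.36, MAP2K6, a kinase upstream of p38, by 0.30, QKI, a splicing regulator, by 0.28 and POU3F2, a neural transcription factor, by 0.27. BMP4 rose as well. MAP2K6 lost its call within replicates 3 and 4 alone (adjusted p = 0.122) and with GC and length correction (0.19), and POU3F2 within replicates 3 and 4 alone (0.148). EGLN3, an oxygen-sensing prolyl hydroxylase, rose by 0.49 with overlapping groups, a call lost without replicate 1 or 2 at 3 h (adjusted p = 0.0513 and 0.0989) or replicate 2, 3 or 4 at 12 h (0.0629, 0.0995 and 0.105), and within replicates 3 and 4 alone (0.086). The genes that fell were XBP1, TXNIP (-0.54), SNRPD3 (-0.34), YARS1 (-0.33) and BNIP3L (-0.20), the last of them lost without replicate 2 at 3 h (adjusted p = 0.116) or replicate 1, 2 or 4 at 12 h (0.106, 0.108 and 0.0526). Within replicates 3 and 4 alone TXNIP and BNIP3L lost their calls (adjusted p = 0.0999 and 0.695). The genes that did not pass the test were BNIP3 (0.07), TINCR (-0.11) and MARS1 (0.03).

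Whether the change with time itself differed under T-REX was tested as the T-REX change minus the mean change of the 3 controls, in 1 fit of the 32 libraries of 3 and 12 h. The test called 13 genes (0.0885%), 6 higher and 7 lower, and 1595 genes had an unadjusted p of at most 0.05. All 13 had the same sign against each control. DESeq2 called 52, and taking the 2 deposited factors of unwanted variation as covariates 1117. The count also turned on single libraries. Without T-REX replicate 1, 3 or 4 at 3 h it was 29, 3 and 4, and without T-REX replicate 1, 2 or 4 at 12 h it was 2, 2 and 8. Without replicate 3 of probe alone at 3 h it was 7, without replicate 2 or 4 of DMSO at 3 h it was 5 and 6, without replicate 4 of light alone at 12 h it was 6, without replicate 2 of probe alone at 12 h it was 5, and without replicate 3 of DMSO at 12 h it was 51.

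Among the 7 lower genes, 5 are on the list of hypoxia response or of glycolysis: P4HA1, TMEM45A, BNIP3, SLC2A1 and STC2. In the controls the first 4 of these rose with time and under T-REX they did not pass the test. The hypoxia response list held 34 of the 14685 genes tested and the glycolysis list 21. The integrated stress response list, with 35 tested, also held 1 gene called for the difference. On that list the difference was above 0 for 22 genes (median 0.15). Levels in the controls are not given here, and whether the arms differed at 3 h, at 12 h or at both was not tested. BNIP3, a mitophagy receptor, was at 28.7, 35.1, 40.7 and 32 CPM at 3 h and 31.9, 34.7, 43.7 and 33.8 CPM at 12 h, with a log2 fold change of 0.07 under T-REX and of 0.66 with DMSO, 0.79 with probe alone and 0.89 with light alone (difference -0.70 ± 0.13 (SE), edgeR adjusted p = 0.0199). P4HA1, the catalytic subunit of collagen prolyl hydroxylase, was at 45, 46.6, 45.3 and 41.2 CPM at 3 h and 39.2, 42.5, 47.5 and 41.7 CPM at 12 h, with -0.06 under T-REX and 0.47 with DMSO, 0.41 with probe alone and 0.62 with light alone (difference -0.55 ± 0.09 (SE), edgeR adjusted p = 0.00615). TMEM45A, a transmembrane protein, was at 11.3, 13, 14 and 13.4 CPM at 3 h and 12.9, 12.1, 13.3 and 12.8 CPM at 12 h, with -0.02 under T-REX and 0.48 with DMSO, 0.69 with probe alone and 0.69 with light alone (difference -0.62 ± 0.11 (SE), edgeR adjusted p = 0.00615). SLC2A1 (GLUT1), the basal glucose transporter, was at 29.1, 32.3, 35.5 and 37.8 CPM at 3 h and 34.7, 33.6, 41.8 and 36.2 CPM at 12 h, with 0.12 under T-REX and 0.48 with DMSO, 0.56 with probe alone and 0.77 with light alone (difference -0.48 ± 0.10 (SE), edgeR adjusted p = 0.0321). The T-REX libraries of 3 and 12 h overlapped for all of these genes. STC2, a secreted glycoprotein whose groups overlapped too, had -0.08 under T-REX and 0.13 with DMSO, 0.17 with probe alone and 0.35 with light alone (difference -0.29 ± 0.06 (SE), edgeR adjusted p = 0.0321). P4HA1 and TMEM45A stayed called in all 39 alternative fits. The calls of the other genes named here were lost without single libraries, BNIP3 in 3 of 32 such fits, NFYA in 4, DOK3 in 5, TIPARP in 9, ACER3 in 11, SLC2A1 and ITPRID2 in 13, RASAL2 in 14, STC2 in 15 and NR3C1 in 22, with adjusted p from 0.05 to 0.188. The difference in BNIP3 was lost without T-REX replicate 3 at 3 h or replicate 1 or 2 at 12 h (edgeR adjusted p = 0.0719, 0.0676 and 0.0763).

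The hypoxia list as a whole was tested only gene by gene. Of 34 tested members 10 rose and 2 fell under T-REX, while 26 rose with light alone, 27 rose and 1 fell with probe alone, and 17 rose with DMSO. Over all genes 16.5% rose with DMSO, 25.6% with probe alone, 23.5% with light alone and 17.6% under T-REX, so the arms differed in calls overall. They also differed in replicate spread, so a lower count of calls need not mean that fewer genes rose. The 2 that fell under T-REX were 1 without replicate 2 at 3 h or replicate 1, 2 or 4 at 12 h. The medians were 0.14 under T-REX, 0.38 with DMSO, 0.37 with probe alone and 0.61 with light alone. The difference of time effects was below 0 for 33 of the 34 members, with a median of -0.21, where it was below 0 for 7488 of all 14685 genes. With any 1 of the 32 libraries left out it was below 0 for 30 to 33 members (median -0.26 to -0.19), with GC and length correction for 32, and with the deposited factors as covariates for 32. It was below 0 for 30 members against DMSO, 27 against probe alone and 31 against light alone. Such a tally was not particular to this list: the difference was also below 0 for 35 of 37 replication-dependent histones (median -0.50). Other members of the hypoxia list still rose under T-REX. STC1, a paralog of STC2, was at 0.646, 0.761, 0.987 and 0.913 CPM at 3 h and 3.67, 1.8, 3.25 and 1.9 CPM at 12 h (log2 fold change 1.68 ± 0.30 (SE), edgeR adjusted p = 8.60e-04), and BHLHE40, a clock and hypoxia repressor, at 43.3, 46.1, 58.4 and 48 CPM at 3 h and 86.5, 77.5, 93 and 81 CPM at 12 h (log2 fold change 0.78 ± 0.09 (SE), edgeR adjusted p = 7.58e-05). RORA, a nuclear receptor, rose by 0.55 and was the 1 member with a positive difference (0.24).

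Of the glycolysis genes SLC2A1 was the 1 called for the difference. Of 21 tested genes 2 rose and 9 fell under T-REX (median -0.25), which is 52.4% called beside 33.9% of all genes. The medians were -0.05 with DMSO, -0.14 with probe alone and 0.05 with light alone. The difference was below 0 for 19 genes (median -0.30), and for 18 to 20 with any 1 library left out. PGK1, phosphoglycerate kinase, was at 240.1, 316, 323 and 242 CPM at 3 h and 151, 171, 178 and 167 CPM at 12 h (log2 fold change -0.75 ± 0.11 (SE), edgeR adjusted p = 9.58e-04), against -0.39 with DMSO, -0.39 with probe alone and -0.13 with light alone, and its difference did not pass the test (edgeR adjusted p = 0.157). Its call over time was lost within replicates 1 and 2 alone (adjusted p = 0.0927). TPI1, triose phosphate isomerase, fell by 0.54, a call lost within replicates 3 and 4 alone (adjusted p = 0.096). SLC2A3 (GLUT3), a high-affinity glucose transporter, rose and was at 4.14, 4.68, 4.72 and 3.93 CPM at 3 h and 8.47, 6.83, 13.5 and 10.2 CPM at 12 h (log2 fold change 1.15 ± 0.19 (SE), edgeR adjusted p = 6.23e-04).

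BNIP3 and P4HA1 hold the core of the hypoxia response element, ACGTG on either strand, in the 250 bases before the RefSeq start (GRCh38.p14). Their windows are shown because these carry the core, which is in capitals, among the 5 genes with a promoter that the naming rule picked for a lower time effect. STC2, called too but not picked by the rule, was not among these 5. The windows of SLC2A1, TMEM45A and DOK3 hold no match.
BNIP3 (chr10:131981924-131982173, minus strand): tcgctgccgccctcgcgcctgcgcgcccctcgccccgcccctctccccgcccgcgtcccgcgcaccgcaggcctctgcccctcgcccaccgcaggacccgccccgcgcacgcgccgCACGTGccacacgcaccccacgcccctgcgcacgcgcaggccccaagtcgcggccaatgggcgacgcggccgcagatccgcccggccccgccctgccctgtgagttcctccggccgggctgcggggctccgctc
P4HA1 (chr10:73096867-73097116, minus strand): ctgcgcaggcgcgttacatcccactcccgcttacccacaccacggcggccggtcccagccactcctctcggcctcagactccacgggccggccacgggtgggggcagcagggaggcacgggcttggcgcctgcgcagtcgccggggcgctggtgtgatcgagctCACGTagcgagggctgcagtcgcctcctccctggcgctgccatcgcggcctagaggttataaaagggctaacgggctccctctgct
In BNIP3 the 2 matches overlap as CACGTG, beginning 134 and 133 bases before the start, and in P4HA1 the match begins 86 bases before it. The core was found in 23.6% of all promoters searched, in 12 of 27 hypoxia response genes (44.4%), in 8 of 19 glycolysis genes (42.1%) and in 2 of the 5 genes picked by the rule.

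**Figure D4:**
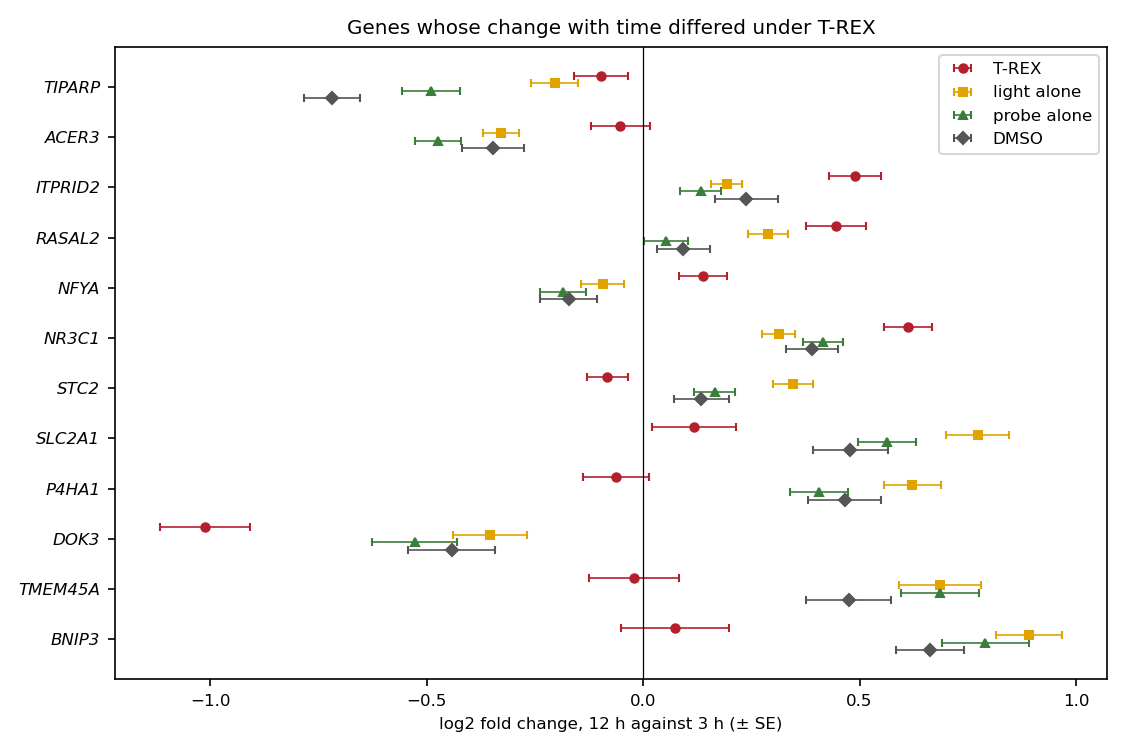
Log2 fold change from 3 to 12 h with its SE (horizontal axis) in T-REX and in the 3 control arms, each from its own 8 libraries, for 12 of the 13 genes called for a difference of time effects. TMEM45A, BNIP3, P4HA1 and SLC2A1 lie between -0.06 and 0.12 under T-REX and between 0.41 and 0.89 in the controls, and DOK3 falls by 1.01 under T-REX.

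Of the other genes called for the difference, DOK3, an adaptor of immune receptor signalling, was at 19.5, 18.3, 19 and 20.7 CPM at 3 h and 8.78, 9.85, 8.83 and 11 CPM at 12 h, a change of -1.01 against -0.44 with DMSO, -0.53 with probe alone and -0.35 with light alone (difference -0.56 ± 0.11 (SE), edgeR adjusted p = 0.0280). Higher under T-REX were TIPARP, NFYA, ACER3, ITPRID2, RASAL2 and NR3C1. TIPARP, a mono-ADP-ribosyltransferase induced by the aryl hydrocarbon receptor, was at 76.5, 74, 70.8 and 69.3 CPM at 3 h and 64.2, 74.9, 65.7 and 67.6 CPM at 12 h with a log2 fold change of -0.10 against -0.72 with DMSO, -0.49 with probe alone and -0.20 with light alone (difference 0.39 ± 0.08 (SE), edgeR adjusted p = 0.0321). NFYA, the CCAAT-binding subunit of NF-Y, was at 58.1, 57.2, 57.7 and 56.5 CPM at 3 h and 63.2, 65.4, 64.6 and 60.1 CPM at 12 h (difference 0.30 ± 0.06 (SE), edgeR adjusted p = 0.0253), with the libraries of 12 h all above those of 3 h, although its own change under T-REX did not pass the test (log2 fold change 0.14 ± 0.05 (SE), edgeR adjusted p = 0.0670). NR3C1, the glucocorticoid receptor, was at 98.3, 86.3, 91 and 85.9 CPM at 3 h and 143, 141, 133 and 136 CPM at 12 h, with 0.61 against 0.39 with DMSO, 0.42 with probe alone and 0.31 with light alone (difference 0.25 ± 0.05 (SE), edgeR adjusted p = 0.0444), which was lost with the replicate number as a block (adjusted p = 0.0507). ACER3, an alkaline ceramidase, ITPRID2 and RASAL2, a Ras GTPase-activating protein, had differences of 0.34, 0.31 and 0.31.

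Gene size and base composition also moved with time. In 5 equal groups by genomic span, from short to long, the median log2 fold change under T-REX was -0.11, -0.09, -0.04, 0.00 and 0.15, and the share of genes that rose went from 7.93% in the shortest group to 36.5% in the longest. In the longest group the controls were alike (0.15, 0.12 and 0.11), and in the shortest they were at -0.03, 0.02 and -0.01. In 5 groups by GC content the T-REX medians ran from 0.03 to -0.07, and by transcript length from -0.10 to 0.09. Correcting each library for GC content and transcript length gave 2735 genes that rose and 3568 that fell, and 4539 of the 4977 calls kept their direction and call. By gene type, 101 of 570 lincRNAs rose (17.7%) and 34 fell (5.96%). Of 711 antisense transcripts 116 rose (16.3%) and 48 fell (6.75%). Over all genes 17.6% rose and 16.3% fell, so in these types the share that rose was near that of all genes and the share that fell was lower. Of 295 processed pseudogenes 7 rose (2.37%) and 32 fell (10.8%), both below the shares over all genes. The part of library preparation in these changes was not tested.

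**Figure D5:**
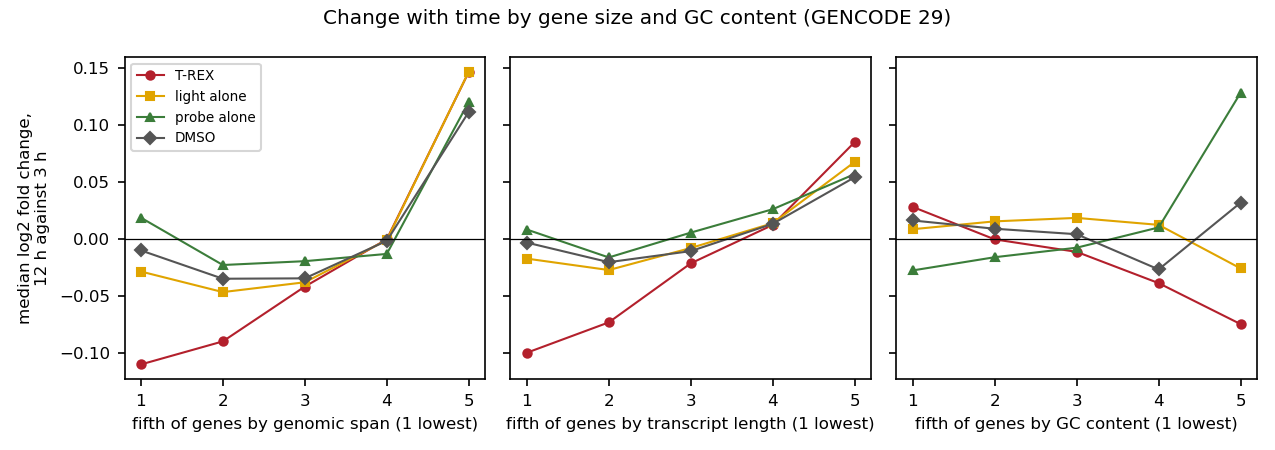
Median log2 fold change from 3 to 12 h (vertical axis) in 5 equal groups of genes (horizontal axes) by genomic span, transcript length and GC content, for T-REX and the 3 controls. The longest genes rise in all 4 arms (0.11 to 0.15), and the shortest group lies at -0.11 under T-REX and between -0.03 and 0.02 in the controls.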

How the data were processed

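RNA of the cultures was extracted with Trizol and depleted of ribosomal RNA, and stranded libraries were sequenced as pairs on a NovaSeq, with bcl2fastq named in the submitters' processing notes. The authors deposited raw read counts of 14685 Ensembl gene identifiers, 13419 of them matched here to a symbol. Cutadapt, the aligner TopHat and Cufflinks are named for the RNA-seq in the study's reporting summary, which does not tie them to these counts. The counter, strand setting and genome build are not given in the sources used here. The factors of unwanted variation that the authors deposited, 2 scores per library, served as covariates in 1 alternative, and their log2 CPM and transformed tables were not used. 

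The genes, lists and tests were chosen with earlier results of these data known. The tables were joined by gene identifier. Calls are from edgeR 4.0.16 in R 4.3.3, with TMM scaling, a robust quasi-likelihood fit and Benjamini-Hochberg adjustment over all genes at 0.05, and the filter on low counts removed 0 genes. The change with time was fitted on the 8 T-REX libraries, and its difference from the controls on the 32 libraries of 3 and 12 h. The standard error is the log2 fold change divided by the square root of F. The series' design calls the replicates independent biological replicates. Same-numbered T-REX libraries of both times deviated together from their group means (r = 0.408, 0.312, 0.297 and 0.399 over 10214 genes), which met the criterion for pairs (r above 0.1 in each). Libraries 1 and 2 (0.419 and 0.323) and 3 and 4 (0.392 and 0.287) also deviated together across numbers, so the numbers are not set apart singly, and in the controls same-numbered r ran from -0.388 to 0.227. The number was a block in an alternative only. Totals of 23952455 to 37099535 counts set the counting error of the T-REX libraries at 3 and 12 h.

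Genes were named by rule: NCBP1, the genes the study names, up to 4 members of each list with the largest change, up to 6 genes per direction with the largest called difference of time effects, and 10 genes per direction with the largest change among those called in all fits with 1 library left out, without overlap and at 1 CPM or more. NCBP2, HSP90B1, CALR, CANX, SERP1, TRIM5, ALG12 and STC2 were named after their values were seen, and a few genes that the rule picked are not reported here. Promoter windows were from RefSeq (GRCh38.p14), and gene types, spans, lengths and GC content from GENCODE 29 for 14556 genes. The tests were tried on simulated counts. Alternatives were RLE, upper-quartile and NCBP1-free scaling, a minimum mean of 100 counts, no filter, a tested fold of 1.2, limma 3.58.1 (voom), DESeq2 1.42.0, thinned counts, fits of 32 and 48 libraries, the replicate number as a block, and each library left out. Corrections for GC content and length and the fits of replicates 1 and 2 or 3 and 4 were added after seeing the data.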

Additional observations from a re-analysis of the deposited data

Results flagged for a closer look

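Of 204 groups of 4 T-REX libraries of the genes named, 11 held a library far from the rest by Dixon's criterion, where chance gives about 1 group in 20. At 12 h these were CRELD2 in replicate 4 (4.08 CPM), DKC1 in replicate 4 (96.2 CPM), BTG2 in replicate 4 (160.5 CPM), DDX60 in replicate 3 (6.44 CPM), TRIM5 in replicate 1 (7.10 CPM), GRHL3 in replicate 2 (10.9 CPM) and EDIL3-DT in replicate 1 (4.99 CPM). At 3 h these were RRM2 in replicate 2 (286 CPM), CLSPN in replicate 4 (133 CPM), HERC6 in replicate 1 (2.89 CPM) and YARS1 in replicate 4 (202 CPM).

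The change from 3 to 12 h differed between T-REX and the mean of the controls, by the edgeR contrast, for 13 genes, of which 12 are given here. On the log2 scale the difference was -0.70 for BNIP3, -0.62 for TMEM45A, -0.56 for DOK3, -0.55 for P4HA1, -0.48 for SLC2A1 and -0.29 for STC2. It was 0.39 for TIPARP, 0.34 for ACER3, 0.31 for ITPRID2, 0.31 for RASAL2, 0.30 for NFYA and 0.25 for NR3C1.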

How the results depend on the processing

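The count of genes called between 3 and 12 h under T-REX stayed within 1.5 times 4977 in all alternatives but one, the test against a fold of 1.2 (1407 genes, 948 higher and 459 lower). With 1 library left out it ran from 3766 (without replicate 1 at 12 h) to 5347 (without replicate 1 at 3 h), and with the replicate number as a block it was 5276. The block ended the calls of NCBP1 and of the difference in NR3C1 and no other call over time or of a difference among the genes named. The count for the difference of time effects, 13, became 15 with RLE scaling, 18 at a mean of 100 counts, 17 with 48 libraries, 19 with the replicate block, 52 with DESeq2, 1117 with the factors of unwanted variation and 90 with GC and length correction (64 higher and 26 lower), and 2 to 51 with 1 library left out. The cause was not tested. For the named genes, 2338 recomputed changes kept their direction and side of the threshold, 75 lost the call and 16 gained it. The change reversed in sign for genes near 0. With 1 library left out it ran from -0.036 to 0.17 for BNIP3, from -0.081 to 0.022 for TMEM45A, from -0.0016 to 0.057 for MARS1 and from -0.20 to 0.039 for TINCR. It also reversed for P4HA1 within replicates 3 and 4 (0.049) and for TMEM45A (0.041) and TINCR (0.00029) within replicates 1 and 2. Within replicates 1 and 2 the medians of immediate early genes (0.18) and the integrated stress response (0.065) also turned positive. Summed over all genes, the replicate spread exceeded counting error in the T-REX groups of 3 and 12 h. This was not checked for genes of low level alone, such as STC1, ID3, RRS1 and H2AC21. Time cannot be told apart from preparation.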
